A study of Mus musculus with 14 samples.

Results

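The 10 genes described here encode proteins that coat lipid droplets, make them grow, or govern the making and breakdown of the triglyceride inside them. They were the perilipins Plin2, Plin3, Plin4 and Plin5, the CIDE proteins Cidea, Cideb and Cidec, the triglyceride lipase Pnpla2 with its inhibitor G0s2, and the acyltransferase Mogat1. The list was given by gene symbol, and probes were assigned through their RefSeq accessions, which found 12 of the 39429 probes of the array for 10 of its 19751 named genes. Cideb and Cidec had 2 probes each, and the brighter one stood for the gene. Liver RNA came from male (M) and female (F) CD-1 mice, an outbred stock, of 3 ages, 3 wk (weaning), 4 wk and 8 wk (young adult), with no treatment named. In the names used here, M8/F8 is 8 wk male over 8 wk female, and M8/M3 is 8 wk male over 3 wk male. Each group was represented by 2 pools of liver RNA, of 5 mice at 3 wk and of 6 mice at 4 and 8 wk, so that the spread between single mice was not measured. Whole liver was used, so fewer cells of a type and less RNA per cell cannot be told apart.

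Hepatocytes store excess fatty acids as triglyceride in lipid droplets, which consist of a neutral lipid core inside a phospholipid monolayer that carries a set of proteins. Perilipins cover this surface and control the access of lipases, CIDE proteins let droplets fuse and grow or load lipoproteins with lipid, and the lipase encoded by Pnpla2 starts the release of fatty acids. Several of the genes are targets of the PPAR nuclear receptors, which bind fatty acids, and liver triglyceride handling is known to change at weaning and to differ between the sexes.

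The 250 bases before the transcription start are shown for 3 of the genes on which the results turn, from RefSeq on GRCm38.p6 and in the direction of the gene. Cidec had the largest ratio, Mogat1 was the 1 member besides Cidec that was higher in male on all 6 male over female arrays, and Plin2 shared with Mogat1 a match to the direct repeat AGGTCANAGGTCA, to which PPAR receptors bind. Capitals mark these matches, in which at most 2 mismatches were allowed on either strand.

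Mogat1 (chr1:78510810-78511059, + strand): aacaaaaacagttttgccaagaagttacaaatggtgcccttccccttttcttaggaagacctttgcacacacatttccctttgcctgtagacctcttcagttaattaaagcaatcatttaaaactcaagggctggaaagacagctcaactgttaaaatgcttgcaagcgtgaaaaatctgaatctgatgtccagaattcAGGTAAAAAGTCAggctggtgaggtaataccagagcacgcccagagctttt
Plin2 (chr4:86670060-86670309, - strand): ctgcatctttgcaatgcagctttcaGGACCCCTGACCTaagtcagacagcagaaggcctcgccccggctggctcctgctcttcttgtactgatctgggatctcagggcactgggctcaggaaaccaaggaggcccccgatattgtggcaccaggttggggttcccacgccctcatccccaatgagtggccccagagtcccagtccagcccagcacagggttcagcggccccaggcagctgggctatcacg
Cidec (chr6:113435761-113436010, - strand, the outer of 2 starts): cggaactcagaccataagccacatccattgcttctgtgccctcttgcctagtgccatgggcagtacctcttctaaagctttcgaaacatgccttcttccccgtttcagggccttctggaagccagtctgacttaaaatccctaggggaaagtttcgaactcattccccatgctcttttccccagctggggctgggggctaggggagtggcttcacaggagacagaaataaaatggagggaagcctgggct

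Windows were found for 9 of the 10 members, 11 windows in all. The direct repeat lay 51 to 39 bases before the start of Mogat1 and 225 to 213 bases before that of Plin2, and 3.24% of all 32841 promoter windows held a match. The STAT palindrome TTCNNNGAA was in no member window and in 7.02% of all, and the E-box CACGTG was in no member window and in 6.02% of all. TATAAA was found in the window of Cideb and in 12.4% of all. These are matches of letters in a short window and say nothing of binding.

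Each comparison had 2 arrays, on which separate pools were hybridized with the dyes exchanged, and values are log2 ratios of the dye-normalized signals, with the SD over n = 2 arrays. In a channel, 55.21% to 77.2% of the spots were well above background, which the scanner software requires before a spot counts as measured against its surroundings, and the number of arrays limits the precision. The direction of each ratio was taken from the dyes in the labels; the study's methods give the opposite dyes for the first pools of M3/F3. On the 6 male over female arrays the log2 ratio of Ddx3y, on the Y chromosome, was 5.80 to 7.24 and that of Xist, expressed from the inactive X chromosome, was -6.67 to -5.10, which fits the labels. Of the 8 hepatocyte markers listed, 7 were found on the array, and all of these were well above background in every channel. The second 8 wk male pool stood apart in its adipocyte markers, which are given with Cidec below. Replicate numbers were read as pool numbers, since the labels do not tie pools across comparisons. The difference between replicate 1 and replicate 2 added up around the arrays that share pools (Pearson r of 0.913 for the 3 wk loop and 0.904 for the 4 wk loop, over 20451 probes of the same arrays, a description).

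Most of the droplet genes showed small ratios between sexes and ages. Cidec, which joins droplets into larger ones, had fitted ratios of 3.57 to 4.28 for 8 wk males over 8 wk females and over younger males, but its 2 pools of 8 wk males differed widely. Plin3, Cideb and the lipase gene Pnpla2 were 1.06-fold to 1.41-fold higher at 8 wk, on 8 of 8 arrays each, and Mogat1 was 1.53-fold to 1.80-fold higher in males, on 6 of 6 arrays. A ratio beyond 1.5 was also measured for Plin4, 1.71-fold lower in F8/F3, for G0s2, 1.53-fold higher in M3/F3 and 1.53-fold lower in M8/M3, and for Cidec in F8/F4, at 1.56. No member was called in any of the 7 comparisons. A gene was called by limma at an adjusted p below 0.05 and a ratio above 1.5 or below its inverse, with at least 1 group well above background on both arrays. Cidea was too dim for this condition throughout, which left 9 members and 63 tests. Of these 63, 9 reached an adjusted p below 0.05, all 9 with a ratio within 1.5, and 23 had an unadjusted p below 0.05. In M3/F3, where 0 of 9 members were called, 0.517% of all genes tested were called, and in M4/F4 0 of 9 members stood beside 1.59%. In the adult, M8/F8, 0 of 9 members stood beside 6.42%. All 3 of these shares are low, so that a count of 0 among 9 members is close to what the array as a whole gave. The age comparisons had larger shares, again beside 0 of 9 members in each, and males (17.9% for M8/M3, 10.8% for M8/M4) had larger ones than females (11.7% for F8/F3, 6.02% for F8/F4). At an unadjusted p below 0.05 the sex comparisons had 4 members at 3 wk, 2 at 4 wk and 2 at 8 wk, beside 11.8%, 21.0% and 39.9% of all genes tested. The age comparisons of males had 5 from 3 wk and 2 from 4 wk, beside 60% and 47.9%, and those of females had 4 and 4, beside 51.8% and 39.4%. An adjusted p below 0.05 was reached by 1 member at 3 wk and 1 at 4 wk between the sexes and by none at 8 wk, beside 2.88%, 7.91% and 21.8%. With age it was reached by 3 members for M8/M3, none for M8/M4, 2 for F8/F3 and 2 for F8/F4, beside 42.0%, 29.6%, 33.7% and 21.3%. When the ratios were instead averaged with weights from the errors that the scanner software modelled, without limma, 4 of 27 member results were called in the sex comparisons and 5 of 36 in the age comparisons, beside 3.41% and 12.5% of all genes tested. A call there kept the conditions on ratio and brightness but used an unadjusted p-value from those errors alone. Such a p-value holds no spread between pools and is not comparable with the adjusted p. The median log2 ratio of the 10 members was between 0.10 and 0.24 in the 7 comparisons, and that of all genes tested was between 0.00 and 0.02.

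**Figure D1:**
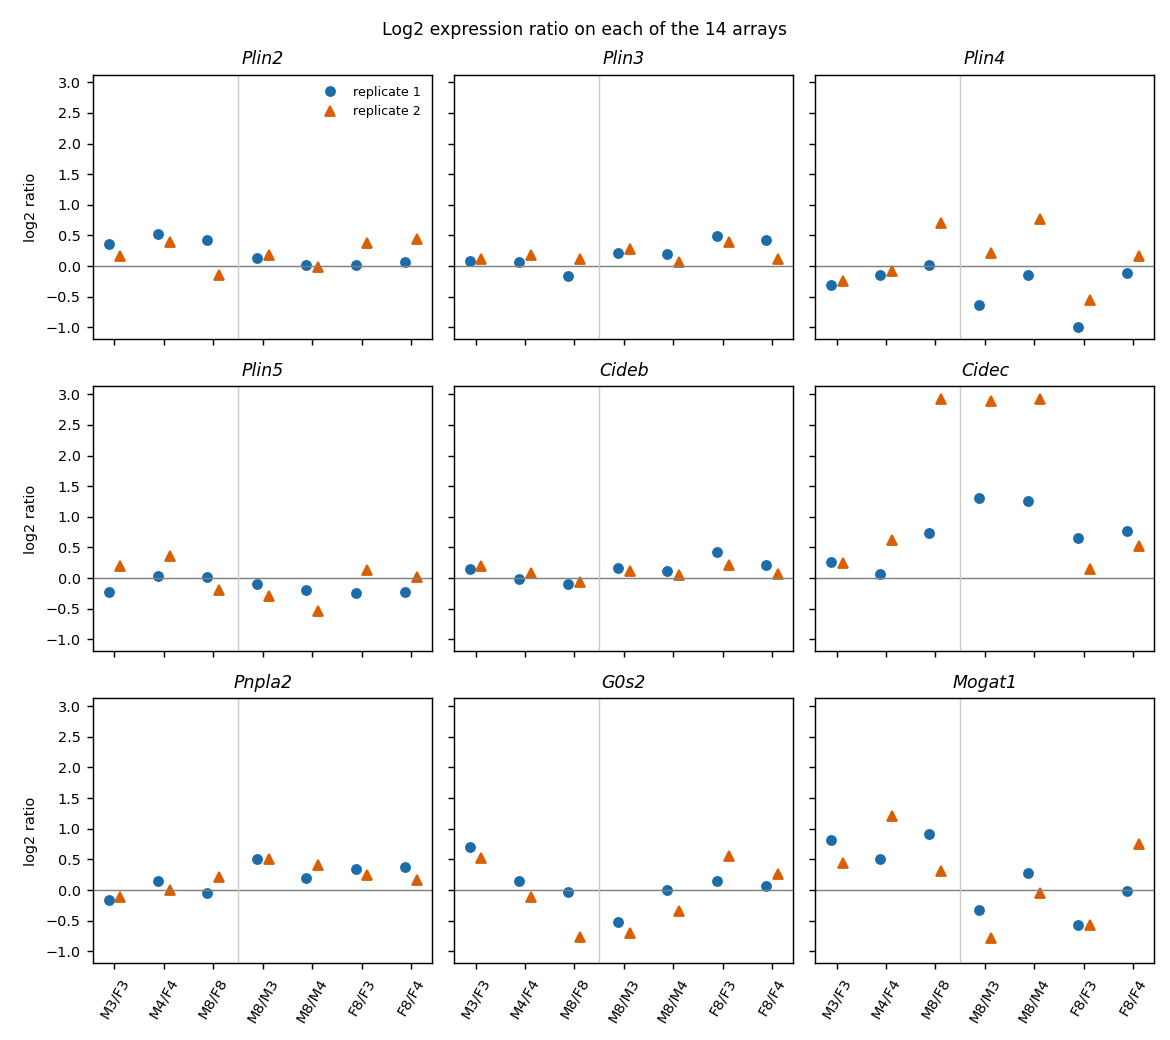
Log2 ratio of the 9 measurable members on each of the 14 arrays (vertical axis), by comparison (horizontal axis, the 3 male over female comparisons to the left of the grey line and the 4 comparisons of 8 wk with a younger age to the right); circles are replicate 1 and triangles replicate 2. Most points lie near 0, Cidec reaches 2.89 to 2.93 on the 3 replicate 2 arrays with 8 wk males, and Mogat1 is above 0 in all 6 male over female arrays.

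Plin2 encodes the perilipin that covers droplets in most cells that are not adipocytes, and it is the main one of hepatocytes. Its log2 ratio of male over female was 0.36 and 0.17 at 3 wk, 0.53 and 0.40 at 4 wk, and 0.43 and -0.14 at 8 wk. Males were thus higher on 5 of 6 arrays, with the pools of 8 wk on both sides of 0. At 4 wk the difference was 0.46 ± 0.09 (SD, n = 2), a ratio of 1.38 with an adjusted p of 0.0266 (limma), which is short of the ratio for a call. With age the male values were 0.14 and 0.18 in M8/M3 and 0.02 and -0.02 in M8/M4, all near 0. The female arrays differed, with 0.01 and 0.37 from 3 wk and 0.07 and 0.45 from 4 wk, where replicate 2 gave the higher values.

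Plin3 encodes a perilipin that is also found free in the cytosol and moves to young droplets. Its log2 ratio in females was 0.49 and 0.39 from 3 wk and 0.43 and 0.12 from 4 wk, and in males 0.22 and 0.28 from 3 wk and 0.19 and 0.07 from 4 wk, so that the 8 wk sample was higher on 8 of 8 arrays. Over the array as a whole, 21.9% of 12304 genes well above background in all channels were higher at 8 wk on all 8 arrays. The fitted ratio was 1.35 in F8/F3 (log2 0.44 ± 0.07, SD, n = 2; adjusted p = 0.00486, limma), 1.21 in F8/F4 (adjusted p = 0.0275, limma) and 1.19 in M8/M3 (adjusted p = 0.0391, limma). These passed the adjusted p but not the ratio. Between the sexes Plin3 was within 0.18 of 0 on the log2 scale on all 6 arrays.

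Plin5 encodes the perilipin that tethers droplets to mitochondria in oxidative tissues. Its array values ran from -0.53 to 0.36 over the 14 arrays, with replicates of opposite sign in 4 of the 7 comparisons. The lowest pair was M8/M4, at -0.20 and -0.53, with an adjusted p of 0.187 (limma). No comparison passed the test.

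Plin4 encodes a perilipin of adipocytes and muscle, with low levels in liver. It was 1.71-fold lower in 8 wk than in 3 wk females (array values -1.0 and -0.55 on the log2 scale, mean -0.77 ± 0.31, SD, n = 2), without passing the test (adjusted p = 0.110, limma). In F8/F4 it was near level, at -0.11 and 0.17. In males the replicates were on opposite sides of 0 in both age comparisons, at -0.63 and 0.21 in M8/M3 and at -0.15 and 0.77 in M8/M4. Pool levels were fitted from the 14 arrays, each relative to the mean of the 6 pools of its replicate number. No array joined pools of different replicate numbers, so the 2 sets of levels share no zero. All 4 pools of 3 wk lay above 0, at 0.34 and 0.16 in males and 0.67 and 0.38 in females, and the pools of 4 and 8 wk lay between -0.39 and -0.14, except the second 8 wk male pool at 0.41. Without the arrays of that pool the log2 ratio was -0.05 in M8/F8 and -0.08 in M8/M4, in place of 0.36 and 0.31. In M8/M3 it was -0.56 in place of -0.21, and 0.13 without the first pool. Before the dye term, the array left without the second pool was at 0.02 in M8/F8, -0.15 in M8/M4 and -0.63 in M8/M3. The sign thus turned in M8/M4, whereas in M8/F8 the new sign came from the dye term. Plin4 in F8/F3 passed the test with a replicate block (adjusted p = 0.0238, limma), with a slide block (0.0411) and with normexp and loess (0.0453), and it was also called with 6 group means and with the error-weighted average. It was not called with the shared pools in the covariance. Plin4 and Plin5 are neighbours on the chromosome, and Plin3 lies near them.

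**Figure D2:**
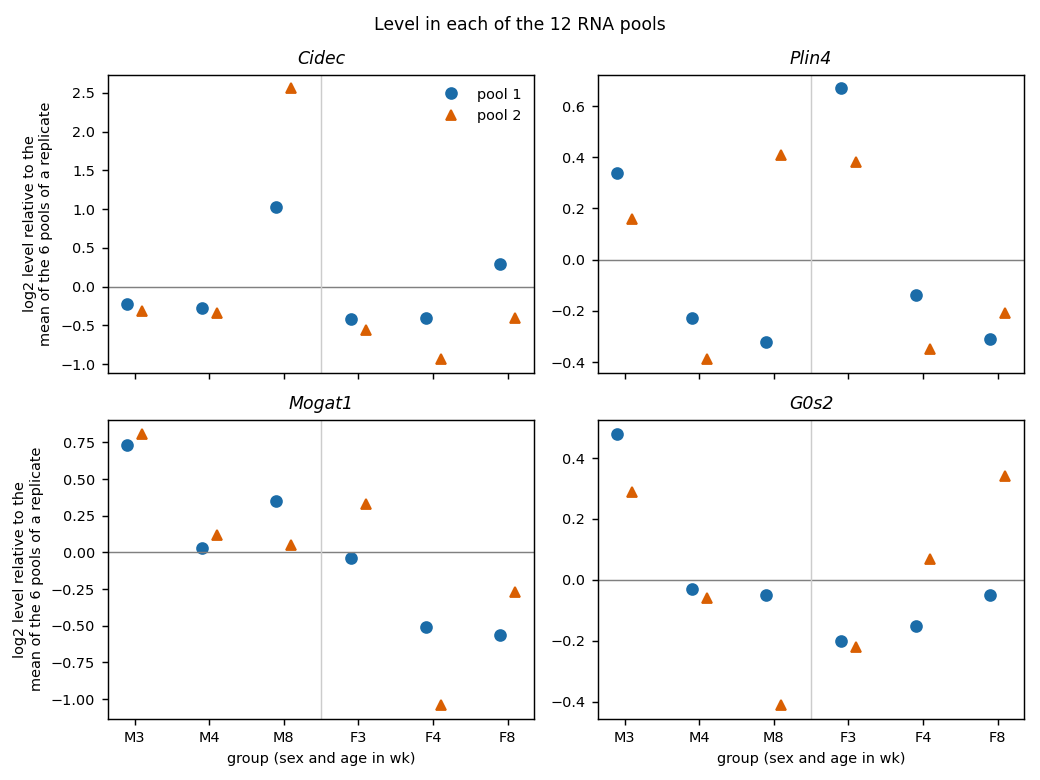
Log2 level of Cidec, Plin4, Mogat1 and G0s2 in each of the 12 RNA pools (vertical axis, relative to the mean of the 6 pools with the same replicate number, a separate scale for each gene), by group (horizontal axis, sex and age in wk); circles are pool 1 and triangles pool 2. Cidec is highest in the 2 pools of 8 wk males, at 1.03 and 2.56, and Plin4 is above 0 in the 4 pools of 3 wk and in the second pool of 8 wk males.

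Cideb encodes the CIDE protein of hepatocytes, which loads very low density lipoproteins with lipid. The spread between its arrays was small, and small differences therefore passed the adjusted p. Its log2 ratio in F8/F3 was 0.42 and 0.22, a ratio of 1.25 (adjusted p = 0.00187, limma). From 4 wk it was 0.22 and 0.06 (adjusted p = 0.0448, limma), 0.17 and 0.12 in M8/M3 (adjusted p = 0.0367, limma) and 0.11 and 0.05 in M8/M4 (adjusted p = 0.219, limma). Like Plin3, Cideb was thus higher at 8 wk on 8 of 8 arrays. Males were higher at 3 wk, at 0.15 and 0.20 (adjusted p = 0.0191, limma), level at 4 wk, at -0.02 and 0.08, and lower at 8 wk, at -0.10 and -0.07 (adjusted p = 0.179, limma). Its second probe gave the same signs in all 7 comparisons, with an adjusted p below 0.05 in F8/F3 only (0.0268, limma).

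Cidec encodes the CIDE protein that joins droplets into larger ones, which is typical of adipocytes and is also made in liver that stores fat. It had the largest ratios of the members, all of them against 8 wk males. Its processed signal, in arbitrary units that are not scaled between arrays, was 136, 167 and 147 in the first 8 wk male pool and 680, 764 and 705 in the second. The other 10 pools gave 39.3 to 103, the highest of them in the second 3 wk male pool. Both pools of 8 wk males were therefore above all other pools, and the second was far above the first on every array. In the pool levels, which are free of this scaling, they stood at 1.03 and 2.56 and the other 10 pools between -0.94 and 0.29.

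The log2 ratio of Cidec in 8 wk males was 0.74 and 2.93 against 8 wk females, 1.30 and 2.89 against 3 wk males, and 1.25 and 2.92 against 4 wk males. The fitted ratio was 3.57 in M8/F8 (log2 1.84 ± 1.55, SD, n = 2; 95% interval 0.35 to 3.32; adjusted p = 0.112, limma). It was 4.28 in M8/M3 (adjusted p = 0.0747, limma) and 4.23 in M8/M4 (adjusted p = 0.0764, limma). None of the 3 passed the test. Each pool of 8 wk males was on 3 arrays, which this fit treats as independent, and the call depended on the model. All 3 comparisons were called with 6 group means in place of 7 comparisons and with the error-weighted average, M8/M3 and M8/M4 with the shared pools in the covariance, and M8/M3 with p-values adjusted within each comparison. The error-weighted p-values hold no spread between pools, and 6 group means treat arrays of the same pools as independent. With normexp background correction and loess in place of the deposited ratios, M8/F8 (1.52, adjusted p = 0.0408, limma) and M8/M4 (1.68, adjusted p = 0.0262, limma) were called, and M8/M3 was not, at 1.13 in place of 2.10 (adjusted p = 0.12, limma). The difference between the replicate arrays in M8/F8, 2.19 on the log2 scale, was equalled or exceeded by 15 of 12304 genes (0.122%), whereas the median gene differed by 0.15. Without the second 8 wk male pool the log2 ratio was 0.90 in M8/F8 (adjusted p = 0.0948, limma), 1.14 in M8/M3 (0.0657) and 1.09 in M8/M4 (0.0710). Without the first pool it was 2.77 (0.0209), 3.05 (0.0193) and 3.08 (0.0191). Both exclusions were chosen after the values had been seen and left 1 array in each of these comparisons, so that the other groups supplied the spread and these p-values hold none between pools of 8 wk males.

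In the other comparisons Cidec leaned the same way with smaller values. Between the sexes it was 0.27 and 0.24 at 3 wk and 0.07 and 0.62 at 4 wk, and in 8 wk females it was 0.66 and 0.15 against 3 wk and 0.76 and 0.52 against 4 wk. The last of these, F8/F4, was called with the error-weighted average only. All 14 array values of this probe were above 0, that is higher in male on 6 of 6 arrays and higher at 8 wk on 8 of 8. Over the array as a whole, 6.52% of 12304 genes were higher in male on all 6. The second probe of Cidec was well above background in 17 of 28 channels, and its values for 8 wk males were 0.59 and 2.26 over females, 0.15 and 2.36 over 3 wk males, and 0.30 and 1.60 over 4 wk males, again with the second pool far above the first. In the other 4 comparisons it did not share the common sign, with 0.18 and -0.61 between the sexes at 3 wk, -0.11 and 0.15 at 4 wk, and in 8 wk females -0.15 and -0.09 against 3 wk and -0.03 and 0.38 against 4 wk.

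Several markers of adipocytes were highest in the second 8 wk male pool. The summed signal of the 8 adipocyte markers listed was 840 to 1000 in the second 8 wk male pool over its 3 arrays, 166 to 302 in the first, 377 to 434 in the first 4 wk female pool and 78.3 to 275 in the other 9 pools. Adipoq, which encodes the adipocyte hormone adiponectin, gave 118 to 149 in that pool and 2.23 to 73.9 in the other 11. Cfd, which encodes adipsin, gave 586 to 687 against 1.53 to 190. The first 8 wk male pool had Cfd at 33.2 to 38.0, well above background on 3 of 3 arrays, and Adipoq at 3.22 to 15.9, well above background on 1 of 3. Retn, which encodes resistin, gave 22.7 to 36.4 in the second pool of 8 wk males against 1.57 to 18.1 in the other 11. Plin1, the perilipin of adipocytes, gave 8.87 to 31.1 against 1.79 to 16.7. Lep, which encodes leptin, was well above background in 0 of 28 channels, and Slc2a4 and Lipe were not higher in M8/F8, at -0.10 and -0.79 and at -0.11 and -0.02. The high adipocyte sum of the first 4 wk female pool was not matched by Cidec, whose signal there was 54.2 and 58.3. The part of the adipocyte markers in the level of Cidec was not tested.

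**Figure D3:**
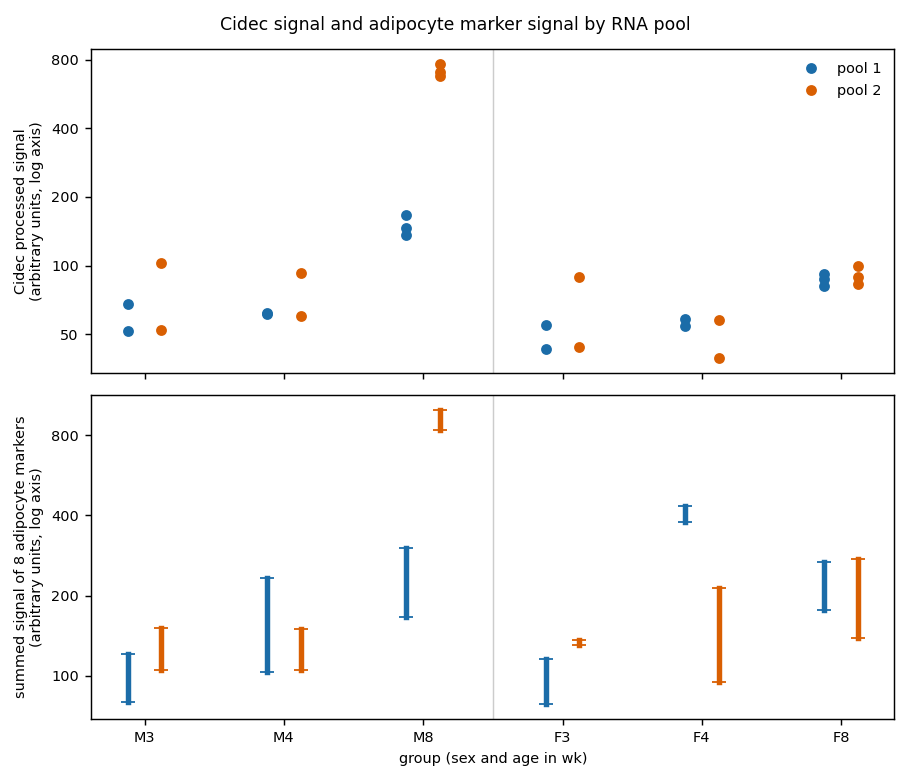
Processed signal of Cidec on each array (upper panel) and lowest to highest summed signal of 8 adipocyte markers (lower panel), both in arbitrary units on a log axis, by group and RNA pool. The second pool of 8 wk males is highest in both panels, at 680 to 764 for Cidec and 840 to 1000 for the markers, and the first 4 wk female pool is second for the markers only.

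As a description, the genes whose 14 log2 ratios ran most like those of Cidec were Aldh3b1 (Pearson r of 0.949), Bbs4 (0.943) and Fhad1 (0.939), among 12303 other genes. The arrays share pools, so the 14 points are not independent, and the 3 genes had smaller ratios, up to 1.12 on the second 8 wk male arrays. Likeness to Cidec was examined after its values had been seen.

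Cidea encodes the CIDE protein of brown fat, which appears in liver with fat storage. It was well above background in 2 of 28 channels, both of the second 8 wk male pool, on the M8/M3 and M8/M4 arrays. Over both arrays, the fold of 8 wk males against a floor was 1.1 in M8/M3 and 1.16 in M8/M4. On 1 of the 2 arrays the 8 wk males were themselves not well above background, so neither fold is a lower bound. The fit to all arrays gave adjusted p of 0.0741 and 0.0655 (limma). The floor is the higher of the dim group's own signal and the lowest signal well above background, set against the mean of the brighter group. These signals had normexp background correction with an offset of 50. In the other 5 comparisons neither group was well above background on any array, and no fold is given. The level of Cidea was thus detected where Cidec and the adipocyte markers were highest.

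Pnpla2 encodes adipose triglyceride lipase, which removes the first fatty acid from triglyceride. Its log2 ratio was 0.50 and 0.50 in M8/M3, a ratio of 1.41 (SD 0.01, n = 2; adjusted p = 0.00969, limma), again short of a call. From 4 wk it was 0.20 and 0.40 in males, and in females it was 0.34 and 0.25 from 3 wk and 0.37 and 0.16 from 4 wk, with adjusted p of 0.0624, 0.0648 and 0.0924 (limma). The 8 wk sample was higher on 8 of 8 arrays. Between the sexes it was -0.17 and -0.11 at 3 wk, 0.15 and 0.00 at 4 wk and -0.05 and 0.22 at 8 wk. Both arrays were lower in male at 3 wk (mean -0.14 ± 0.04, SD, n = 2), without passing the test (adjusted p = 0.390, limma).

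G0s2 encodes the protein that binds and inhibits this lipase. It was 1.53-fold higher in males at 3 wk (log2 0.70 and 0.52, mean 0.61 ± 0.12, SD, n = 2; adjusted p = 0.0591, limma). At 4 wk the sexes were level, at 0.14 and -0.11, and at 8 wk males had -0.03 and -0.77. In males it was 1.53-fold lower at 8 wk than at 3 wk (-0.52 and -0.70; adjusted p = 0.0587, limma), whereas in females it was 0.14 and 0.55. None of these passed the test, though M3/F3 was called with 6 group means, with the shared pools in the covariance, with normexp and loess and with the error-weighted average, and M8/M3 with all of these but normexp and loess. M8/M3 was also called with arrays centred on bright probes and with p-values adjusted within each comparison. The age change differed between the sexes by -0.96 on the log2 scale (standard error 0.24; adjusted p = 0.0843 within the interaction, limma), also without passing it. This interaction was called with 6 group means. In M8/F8 and M8/M4 the second 8 wk male pool was the lower one, and without it the log2 ratio in M8/F8 was -0.16 in place of -0.40, in M8/M4 0.13 in place of -0.17, and in M8/M3 -0.39 in place of -0.61, which is within 1.5-fold. The array left in M8/M4 was at 0 before the dye term, so the sign of 0.13 came from that term. Without the first pool M8/F8 (-0.64, adjusted p = 0.0460, limma), M8/M3 (-0.83, adjusted p = 0.0331, limma) and the interaction (-1.17, adjusted p = 0.0487, limma) were called, again with no spread between pools of 8 wk males in these p-values. In the pool levels 3 wk males had 0.48 and 0.29, and the other 10 pools lay between -0.41 and 0.34, the highest of them the second pool of 8 wk females. Pnpla2 and G0s2 thus had opposite signs in M8/M3 on both arrays.

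Mogat1 encodes monoacylglycerol acyltransferase 1, which makes diacylglycerol for triglyceride synthesis. Its log2 ratio of male over female was 0.81 and 0.44 at 3 wk, 0.50 and 1.20 at 4 wk and 0.91 and 0.31 at 8 wk. Males were higher on 6 of 6 arrays, as in 6.52% of genes, and the fitted ratios were 1.54 (adjusted p = 0.184, limma), 1.80 (0.0825) and 1.53 (0.195). The SD over the 2 arrays was 0.26, 0.49 and 0.42, and no call was made. With 6 group means M4/F4 and M8/F8 were called, and with the error-weighted average M3/F3 and M4/F4. Neither setting takes the shared pools into account. With the shared pools in the covariance Mogat1 was called in no comparison. With age it was lower at 8 wk than at 3 wk on all 4 arrays, at -0.33 and -0.79 in males and -0.57 and -0.57 in females (adjusted p = 0.235 and 0.227, limma), and it showed no common sign from 4 to 8 wk, at 0.28 and -0.05 in males and -0.02 and 0.75 in females. In the pool levels the 3 wk males were highest, at 0.73 and 0.81, and females of 4 and 8 wk lowest, at -0.51 and -1.04 and at -0.56 and -0.27. The pools of the other 3 groups lay between and overlapped.

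**Figure D4:**
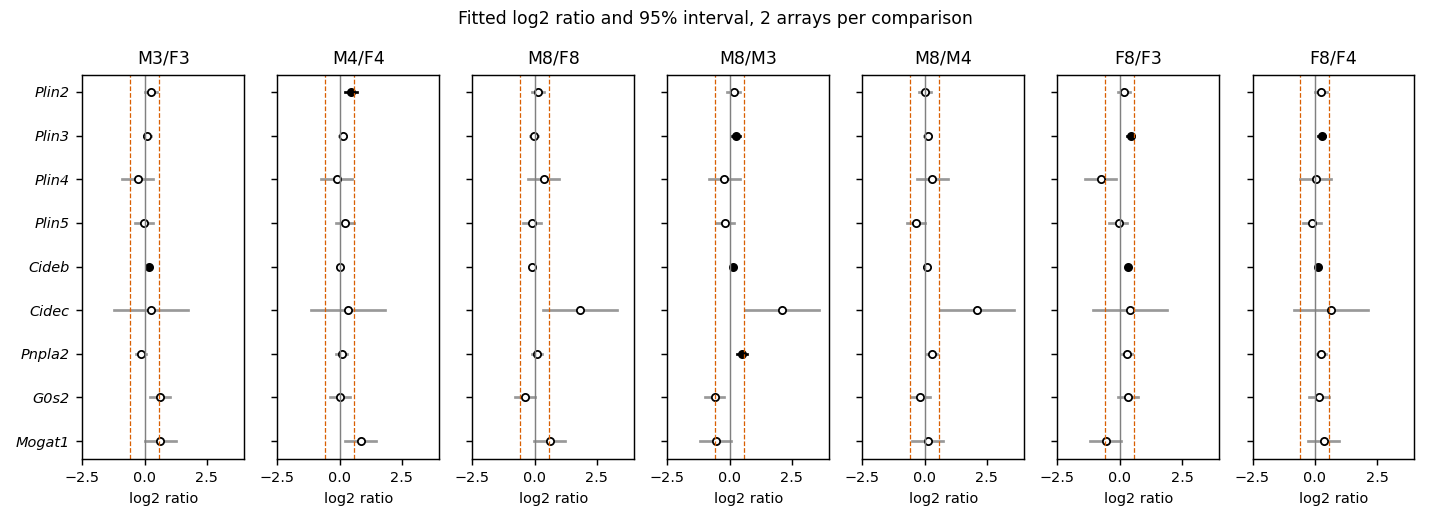
Fitted log2 ratio (points) and 95% interval (bars) of the 9 measurable members in the 7 comparisons, each from 2 arrays and with the spread shared over all 14; filled points have an adjusted p below 0.05 and the dashed lines stand at a ratio of 1.5 and its inverse. The 9 filled points all lie between the dashed lines, and Cidec in M8/F8, M8/M3 and M8/M4 lies outside them with a wide interval.

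Whether a change with age differed between the sexes was asked with M8/M3 minus F8/F3 and with M8/M4 minus F8/F4. No member was called in either (limma), beside 3.38% and 1.33% of all genes tested. An unadjusted p below 0.05 was found for 2 members (G0s2 and Cideb) and 0 members, beside 26.3% and 17.6%. The largest values among the 9 measurable members were those of Cidec, 1.69 from 3 to 8 wk and 1.44 from 4 to 8 wk (adjusted p = 0.380 and 0.558, limma), and G0s2 from 3 wk, given above. The values of Cidec rested on the pools, with 0.74 and 0.45 without the second pool of 8 wk males, no larger than G0s2 from 3 wk (-0.74), and 2.65 (adjusted p = 0.0487, limma) and 2.44 (adjusted p = 0.0598, limma) without the first. The same differences could be read from the male over female arrays, which use other hybridizations of the same pools. For the 9 measurable members both readings differed by at most 0.19 on the log2 scale, with 1.69 and 1.58 for Cidec and -0.96 and -1.01 for G0s2. Ages 3 and 4 wk were on no array together and were compared through the 8 wk pools. No member was called in M4/M3 or F4/F3, beside 0.292% and 0.0931% of all genes tested, and 0 and 2 members had an unadjusted p below 0.05 (beside 17.4% and 14.3%), the latter being Cideb (log2 0.18) and Mogat1 (-0.93, adjusted p = 0.454, limma). The lowest values in F4/F3 were those of Mogat1 and Plin4 (-0.81, adjusted p = 0.535, limma).

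Other genes of droplets and triglyceride were taken from a list of 42, of which 41 or 42 were bright enough in each comparison. None was called in M3/F3, 2 of 41 were higher and 0 lower in M4/F4 (0.619% and 0.971% of all genes tested), and 3 of 41 were higher and 4 lower in M8/F8 (2.67% and 3.75%). With age in males, 4 of 41 were higher and 7 lower from 3 wk (7.84% and 10%) and 3 and 5 of 42 from 4 wk (4.46% and 6.39%). In females, 3 of 41 were higher and 0 lower from 3 wk (5.09% and 6.65%) and 2 and 0 of 41 from 4 wk (2.29% and 3.73%). The median of the list was -0.04 to 0.06 in the 7 comparisons. Interaction calls numbered 2 up and 2 down from 3 wk (1.64% and 1.74% of all genes tested) and 0 up and 2 down from 4 wk (0.752% and 0.580%), and the only call from 3 to 4 wk was 1 gene down in males. In M8/F8 the genes higher in male were Fitm1, which helps droplets form at the endoplasmic reticulum (1.81 and 1.62), Ces3a, a carboxylesterase (1.46 and 0.90), and Abhd5, the activator of the Pnpla2 lipase (0.80 and 0.70), with adjusted p of 0.000351, 0.000318 and 0.00469 (limma). Those lower in male were Tm6sf2, which acts in lipoprotein lipidation (-1.12 and -0.97), Mogat2, a relative of Mogat1 (-0.77 and -0.80), Ces1d, a triglyceride hydrolase (-0.59 and -0.81), and Gpat3, an acyltransferase (-0.66 and -0.66), with adjusted p of 7.46e-05, 0.00415, 0.0024 and 0.0428 (limma). Fitm1 and Ces3a were called already in M4/F4, at 0.94 and 0.67. The change from 3 to 8 wk was higher in males than in females for Fitm1 (interaction 1.28, adjusted p = 0.0114, limma) and Ces3a (1.24, adjusted p = 0.00343, limma), and lower for Tm6sf2 (-1.13, adjusted p = 0.000836, limma) and Mogat2 (-0.96, adjusted p = 0.0203, limma). From 4 to 8 wk it was lower in males for Tm6sf2 (-0.77, adjusted p = 0.00502, limma) and Mgll, which cleaves monoacylglycerol (-0.60, adjusted p = 0.0282, limma). Mogat1 and Mogat2 thus had opposite signs in M8/F8, where only Mogat2 was called.

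The list of 25 PPARalpha targets had 24 or 25 bright enough and 0 calls in M3/F3, 2 up in M4/F4, and 1 up and 4 down in M8/F8, where the shares of all genes were those given above for the same comparisons. With age it had 2 up and 7 down of 25 for M8/M3, beside 7.84% up and 10% down of all genes, and 1 up and 7 down of 25 for M8/M4, beside 4.46% and 6.39%. In females it had 0 up and 1 down of 24 for F8/F3, beside 5.09% and 6.65%, and 0 calls for F8/F4. In M8/F8 the genes lower in male were Cyp4a10 (-2.25, adjusted p = 0.000842, limma), Cyp4a14 (-2.29, adjusted p = 0.00539, limma) and Cyp4a31 (-1.79, adjusted p = 0.00136, limma), closely related fatty acid hydroxylases whose probes may share signal, and Cd36, which takes up fatty acids (-0.63, adjusted p = 0.00241, limma). The gene higher in male was Aqp7, which encodes a glycerol channel (1.69, adjusted p = 0.00588, limma), and in M4/F4 these were Fgf21, a hormone of fasting, and Fabp1, which binds fatty acids (1.59 and 0.89). In the interactions the list had 0 up and 3 down of 25 from 3 wk, beside 1.64% and 1.74% of all genes, and 0 up and 4 down of 25 from 4 wk, beside 0.752% and 0.580%, which were Cyp4a10, Cyp4a31 and Cd36 in both and Cyp4a14 from 4 wk. The list of 7 PPAR regulators also held Fabp4, a fatty acid binding protein that is not itself a regulator. This list had 0 calls in M3/F3, 1 down in M4/F4 (the coactivator Ppargc1a, -1.10) and 1 up in M8/F8, the last being Pparg, the receptor that drives fat storage in adipocytes. Pparg was 1.01 and 0.59 in M8/F8 (adjusted p = 0.0364, limma), and 8 wk males had 1.24 and 1.30 against 3 wk and 1.59 and 1.30 against 4 wk, so that its 2 pools were alike where those of Cidec were not. In females Pparg was 0.75 and 0.38 from 3 wk (adjusted p = 0.110, limma) and was called from 4 wk, at 0.90 and 0.96 (adjusted p = 0.0206, limma), and it was called in neither interaction (0.71 and 0.51, adjusted p = 0.231 and 0.485, limma). With age this list of 7 had 2 up and 1 down in males from 3 wk (7.84% and 10% of all genes), 3 and 1 from 4 wk (4.46% and 6.39%), and in females 2 and 1 from 3 wk (5.09% and 6.65%) and from 4 wk (2.29% and 3.73%).

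Lists of other cell types and of the clock were examined in the same way, and their counts stand beside the shares of all genes given above (for example 10% lower in M8/M3 and 3.75% lower in M8/F8). Of the 7 erythroid genes found on the array, 5 fell in each of the 4 age comparisons, and 1 (Alas2, which makes heme precursors and is also expressed by hepatocytes) was higher in males at 8 wk than at either younger age, and higher in male than in female mice of the same age at 4 and at 8 wk. Of the 12 clock genes, 4 were higher and 2 lower in males at 8 wk than at either younger age, and in females 5 and 1 against 3 wk and 4 and 3 against 4 wk, and 1 was lower in M8/F8. Kupffer cell markers were lower in male in M8/F8 in 5 of 8 (3.75% of all genes) and in M4/F4 in 1 of 8 (0.971%), and with age 2 of 8 were lower in each male and 1 of 8 in each female comparison. Stellate cell markers, of which 8 to 10 were bright, had 2 lower in M8/M3 and no other call. Hepatocyte markers had at most 1 of 7 higher and 1 of 7 lower in a comparison. Adipocyte markers had 1 call in each of the 4 age comparisons, that of Lipe, which hydrolyses diacylglycerol, and none in the sex comparisons. The part of these cells and of the time of killing, which the sources used here do not give, in the age comparisons of the members was not tested.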

How the data were processed

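Liver RNA of male and female CD-1 mice of 3, 4 and 8 wk was hybridized to 14 two-colour Agilent mouse arrays, 2 per comparison with the dyes exchanged. The authors deposited scanner output with spot intensities in arbitrary units, background-subtracted and processed signals, and the log10 ratio of red over green, which come from Feature Extraction 10.7.1.1 with its linear and LOWESS normalization of the dyes. The log10 values of the table deposited for the series differed from these by at most 0, in the same direction (red over green), with a median of 0 in every column. The depth of an array has no count, and the 2 arrays per comparison limit the precision.

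Here the ratios were converted to log2, turned to male over female or older over younger by the dyes in the labels, and averaged over spots of a probe, without control spots and non-uniform outliers. Probes were named through RefSeq accessions, and the brightest probe stood for a gene. limma 3.58.1 (in R 4.3.3, with the data.table package, version 1.17.8) fitted 7 comparisons and 1 dye term, with 6 residual degrees of freedom before moderation, and p-values were adjusted by Benjamini-Hochberg jointly over the 7 comparisons and all probes, and separately for each interaction and each 3 to 4 wk contrast. The fit was tested on simulated data. Samples were grouped by their titles. Where nothing but the pools differs between arrays, p-values measure the spread between pools of mice, not between mice.

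The 10 members were given by name, and the named genes were these and the genes of the droplet and triglyceride list called in a sex comparison or an interaction. Genes of the PPAR and marker lists, and those most like Cidec, were named after their values had been seen. Members, lists and tests were chosen with earlier results of these data known. Alternatives varied the model, background correction, centring, filters, thresholds and arrays left out. The Rosetta error model used by the authors was approximated only as an alternative. No per-sample column was left unused for want of a sample.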

Additional observations from a re-analysis of the deposited data

Results flagged for a closer look

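In 5 cases both arrays of one contrast lay on one side of 0 and both arrays of the matching contrast on the other. The interaction was tested in limma on the age arrays, as M8/M3 minus F8/F3 or M8/M4 minus F8/F4. The differences between male over female comparisons come from other arrays of the same pools and were not tested themselves. All differences below are on the log2 scale, and no interaction of these genes passed the test.

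For G0s2, males were higher at 3 wk (0.70 and 0.52), and at 8 wk the values were -0.03, which is near 0, and -0.77. The difference between M8/F8 and M3/F3 was -1.01. It was lower at 8 wk than at 3 wk in males (-0.52 and -0.70) and higher in females (0.14 and 0.55), a difference of -0.96 between M8/M3 and F8/F3, which is the interaction as tested (adjusted p = 0.0843, limma).

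Cideb was higher in males at 3 wk (0.15 and 0.20) and lower at 8 wk (-0.10 and -0.07), a difference of -0.26 between M8/F8 and M3/F3, which was not tested. The interaction on the age arrays was -0.17 (adjusted p = 0.12, limma).

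Plin4 was lower in males at 3 wk (-0.31 and -0.25) and at 4 wk (-0.14 and -0.08), and at 8 wk the values were 0.02 and 0.70. The difference between M8/F8 and M3/F3 was 0.64 and that between M8/F8 and M4/F4 was 0.47, neither of them tested. On the age arrays the interactions were 0.56 (adjusted p = 0.505, limma) and 0.28 (adjusted p = 0.884, limma). The 0.70 was from the second 8 wk male pool.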

How the results depend on the processing

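In the main analysis no member was called in the sex comparisons, the age comparisons, the interactions or from 3 to 4 wk, beside 2.87%, 11.6% and 2.34% of all genes tested in the first 3 of these. A fit of 6 group means in place of 7 comparisons treats arrays of the same pools as independent. Its calls were 4 of 27 in the sex comparisons, 4 of 36 in the age comparisons and 1 of 18 in the interactions, beside 3.64%, 13.4% and 5.89% of all genes. With the shared pools in the covariance they were 1 and 3 in the sex and age comparisons (2.58% and 10.2% of all genes), with normexp and loess 2 and 2 (2.31% and 7.82%), without the ratio threshold 2 and 7 (10.9% and 31.6%), and with the error-weighted average 4 and 5 (3.41% and 12.5%). The age comparisons had 1 call with a replicate block, 1 with a slide block, 1 with arrays centred on bright probes and 2 with p-values adjusted within each comparison, beside 11% to 12% of all genes. Differences between replicate 1 and 2 correlated between comparisons at -0.557 to 0.689. Comparisons share pools, so these values cannot show whether the replicate numbers acted as a common block. The call under the block was Plin4 in F8/F3. Leaving out 1 array at a time put some member results over the threshold, among them G0s2 in M3/F3 and M8/M3 and Cidec. The shares of all genes called in the sex and age comparisons were then at or below those of the main analysis. In those fits, and in the next 2, the lone array was assumed to vary like the others. After the data were seen, the first 8 wk male pool was left out, which gave 3, 3 and 2 calls in the sex, age and interaction results (1.30%, 5.78% and 0.436% of all genes), and the second, which gave 1 call in the sex comparisons (G0s2 in M3/F3, beside 1.03%). Since no member was called, no called value could turn its sign. Values that were not called did so, such as Plin4 in M8/M4 (0.31, and -0.08 without the second 8 wk male pool). Plin4 in M8/F8 (0.36 and -0.05) and G0s2 in M8/M4 (-0.17 and 0.13) also changed sign. For these the array left was at 0.02 and 0, and the new sign came from the dye term. Of 1620 member results under alternatives, 1570 stayed on the same side of the threshold and 50 passed it. In this count an array left out was considered only for the comparison and interaction that use it. The calls gained were those of Cidec, G0s2, Mogat1 and Plin4, except without the ratio threshold (Cideb, Plin2, Plin3 and Pnpla2). The cause of the differences between settings was not tested. With 2 arrays per comparison, and with Cidea near background, a count of 0 does not show that the members did not differ.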
